A study of Mus musculus with 18 samples.

Results

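The Rgs genes encode regulators of G protein signalling, proteins that speed the hydrolysis of GTP by the alpha subunit of a G protein and so shorten its active state. Of 55450 genes in the count table, 8 members of the family were taken by name: Rgs2, Rgs3, Rgs4, Rgs5, Rgs6, Rgs10, Rgs12 and Rgs14. All 8 passed the filter on low counts and are among the 16270 genes tested. They were described in left ventricle of male FVB/N mice, wild type (WT) or with cardiac-specific overexpression of Gαq, the alpha subunit encoded by Gnaq. From 4 to 20 weeks of age, hence for 16 weeks, mice of either genotype ate control diet (CD) or chow with ertugliflozin (ERTU) at 0.5 mg/g, a drug that blocks SGLT2, the glucose transporter of the kidney. The 18 libraries comprised 4 of WT CD, 5 of Gαq CD, 5 of WT ERTU and 4 of Gαq ERTU. The sources used here do not name the promoter that drives the transgene, and its reads were not told apart from those of endogenous Gnaq. Libraries are named by group and by the number in the count table, which the labels do not link to a sample. By the study's methods RNA came from several hearts a group, in the same number range as the libraries here. The labels do not tie a library to a mouse, and the tests measure the spread between these libraries.

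Gαq couples hormone receptors such as those for angiotensin, endothelin and noradrenaline to phospholipase C in heart muscle, and RGS proteins are its brakes. Rgs2 acts with preference on Gαq, while Rgs3, Rgs4 and Rgs5, of the same subfamily (R4), act on Gαi as well as on Gαq. Rgs6 belongs to the R7 subfamily, whose proteins are stable only when bound to the beta subunit Gβ5 and act on Gαi and Gαo. Rgs10, Rgs12 and Rgs14 form the R12 subfamily, which acts on Gαi and Gαo, and its larger proteins Rgs12 and Rgs14 also hold a GoLoco motif that keeps Gαi inactive.

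Rgs2 and Rgs5 were lower and Rgs10 was higher in Gαq than in WT hearts, and these were the 3 of 8 members whose adjusted p was under 0.05 for genotype (edgeR quasi-likelihood test, Benjamini-Hochberg adjustment over all genes). Of all genes tested, 19.6% passed the same threshold, 9.72% higher and 9.92% lower in Gαq. Ertugliflozin changed none of the 8 members past the threshold, in WT, in Gαq or over both genotypes. The same held for nearly all genes, of which 0% passed in WT, 0.00615% in Gαq and 0% over both genotypes. Among the 9 Gαq libraries Rgs2 was lowest where Gnaq was high, a relation that did not pass adjustment over all genes.

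The bases before the start of 4 members are shown here, because Rgs2, Rgs5 and Rgs10 changed with genotype and Rgs4 is the neighbour of Rgs5 on chromosome 1. RefSeq promoter entries on build GRCm38.p6 were matched for 7 of 8 members, and Rgs14 had none. Each sequence runs 5′ to 3′ on the gene's strand and ends just before the first exon of an annotated transcript. For Rgs2, Rgs4 and Rgs5 that is the first exon of the whole gene. For Rgs10 another annotated transcript begins further upstream, so its window lies inside the annotated gene, between exons. Capitals mark matches on either strand to motifs bound by general promoter factors. The TATA box was searched as TATAAA. The CCAAT box was searched by the letters of its name. For the GC box, bound by Sp1 and its relatives, GGGCGG was used. A half-site of the cyclic AMP response element was searched as TGACG, and the CArG box of serum response factor had no match in these windows.
Rgs2, chr1:144004162-144004399, minus strand, 238 bases: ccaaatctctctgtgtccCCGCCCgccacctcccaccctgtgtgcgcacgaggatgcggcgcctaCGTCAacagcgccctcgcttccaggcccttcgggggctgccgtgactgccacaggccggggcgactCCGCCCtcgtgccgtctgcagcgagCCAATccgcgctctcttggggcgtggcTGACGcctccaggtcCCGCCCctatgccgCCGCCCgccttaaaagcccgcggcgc
Rgs4, chr1:169747643-169747892, minus strand, 250 bases: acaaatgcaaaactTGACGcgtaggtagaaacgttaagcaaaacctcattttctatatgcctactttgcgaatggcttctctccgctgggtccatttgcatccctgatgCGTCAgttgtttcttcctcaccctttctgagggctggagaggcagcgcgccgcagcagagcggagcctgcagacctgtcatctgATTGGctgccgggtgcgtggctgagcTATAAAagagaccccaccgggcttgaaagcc
Rgs5, chr1:169655251-169655500, plus strand, 250 bases: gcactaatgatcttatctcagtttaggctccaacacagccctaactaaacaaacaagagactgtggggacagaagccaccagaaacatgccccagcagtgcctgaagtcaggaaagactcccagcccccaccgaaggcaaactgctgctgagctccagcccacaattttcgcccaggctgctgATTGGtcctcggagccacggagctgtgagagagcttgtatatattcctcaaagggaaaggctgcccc
Rgs10, chr7:128418174-128418422, minus strand, 249 bases: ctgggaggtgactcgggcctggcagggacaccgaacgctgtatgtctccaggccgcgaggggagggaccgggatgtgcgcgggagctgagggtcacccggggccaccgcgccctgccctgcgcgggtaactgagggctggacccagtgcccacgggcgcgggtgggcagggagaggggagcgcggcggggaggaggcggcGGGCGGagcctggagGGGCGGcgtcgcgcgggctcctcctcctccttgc

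The Rgs2 promoter held 4 GC boxes, 1 CCAAT box and 2 half-sites of the cyclic AMP response element. Rgs4 held 1 TATA box, 1 CCAAT box and 2 such half-sites. The Rgs5 window had 1 CCAAT box and no match to the others, and that of Rgs10 had 2 GC boxes. Over 32817 promoters, in the 250 bases before the start, a TATA box was present in 12.4%, a CCAAT box in 33.8%, a GC box in 32.7%, the half-site in 17.7% and a CArG box in 1.47%. Rgs2 and Rgs10 were rich in G and C, with 71.8% and 76.3% of bases, while Rgs4 and Rgs5 both had 53.6% against a median of 52.4% over all promoters. CpG pairs followed another order, with 28 in Rgs2, 27 in Rgs10, 13 in Rgs4 and 4 in Rgs5. The members that were lower in Gαq, Rgs2 and Rgs5, thus stood at opposite ends of these 4 in CpG content.

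The members lie on 6 chromosomes (GRCm38, GENCODE M21). Rgs2 (ENSMUSG00000026360) spans chr1:143999338-144004161 on the minus strand. Rgs5 (ENSMUSG00000026678, chr1:169655501-169695813, plus strand) and Rgs4 (ENSMUSG00000038530, chr1:169741477-169747642, minus strand) face each other, with 45663 bases and no other annotated gene in between. Rgs3 (ENSMUSG00000059810) is at chr4:62559847-62704001, Rgs12 (ENSMUSG00000029101) at chr5:34949445-35039644, Rgs6 (ENSMUSG00000021219) at chr12:82588292-83162056 and Rgs14 (ENSMUSG00000052087) at chr13:55369732-55384687, all on the plus strand. Rgs10 (ENSMUSG00000030844) is at chr7:128373621-128418758 on the minus strand. The longest coding sequence was 543 bases in Rgs5 and in Rgs10 and 4353 bases in Rgs12. Antisense genes shared 467 exon bases with Rgs12 and 77 with Rgs6, and the study counted by strand.

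Rgs5, which marks pericytes, the cells that wrap capillaries, was the most abundant member. Per kilobase of annotated exon it averaged 151 CPM (read pairs scaled to library size) over the 18 libraries, 79.4% of the summed level of the 8 members. In WT CD, Rgs2 stood at 12.7 ± 4.34 CPM per kilobase (SD, n = 4) and Rgs4 at 10.2 ± 1.32, which did not differ beyond their spread. Rgs3 at 5.05 ± 0.851, Rgs10 at 4.05 ± 0.887 and Rgs12 at 3.94 ± 0.391 CPM per kilobase followed and overlapped within 1 SD of their neighbours. Rgs6 was lower at 1.56 ± 0.432, and Rgs14 was lowest at 0.245 ± 0.0527 CPM per kilobase. The order was partly different in Gαq CD, where Rgs2 at 7.19 ± 2.72 CPM per kilobase (SD, n = 5) stood below Rgs4 at 10.7 ± 1.87. Exon length was taken as the union over all transcripts, so the level per kilobase of Rgs3, with many transcripts, is understated where short forms are used. Rgs14 rested on 7 to 30 read pairs a library, while each other member had at least 78 in every library.

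**Figure D1:**
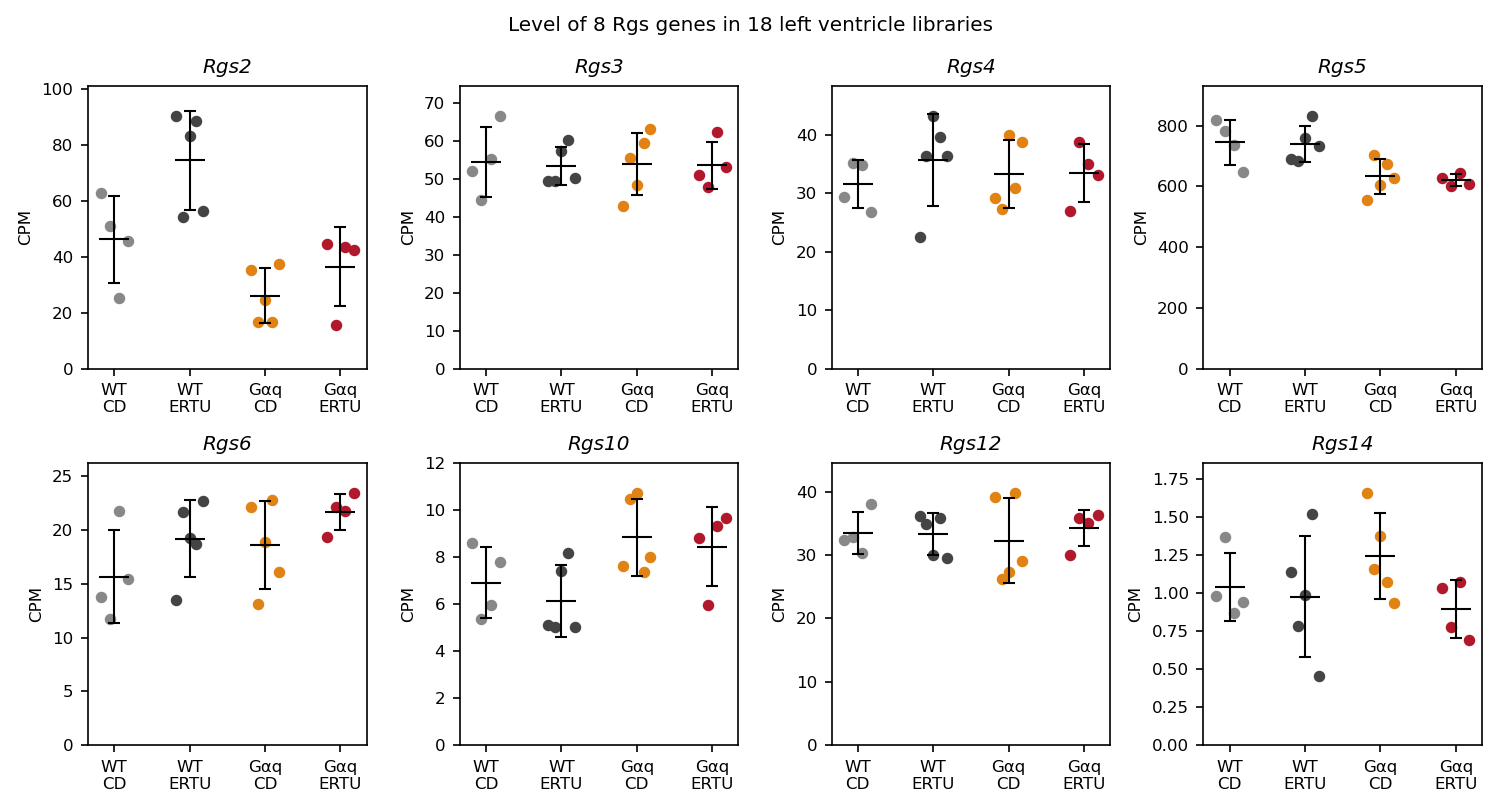
Level of the 8 Rgs genes in CPM (linear axes from 0, 1 panel per gene) for each library, shown as points, with the group mean and SD as a bar. Rgs2 and Rgs5 sit lower in the Gαq groups, Rgs10 sits higher, and 1 Gαq ERTU library stands at 15.4 CPM of Rgs2 below the other 3 of its group.

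Gnaq was checked first. It ran from 45.5 to 230 CPM in the 9 WT libraries and from 1641 to 11672 CPM in the 9 Gαq libraries, with a log2 fold change of 5.42 ± 0.45 (SE; adjusted p = 4.75e-08, edgeR). No WT library reached the lowest Gαq library. The level varied widely within the Gαq groups, and also within WT CD (45.6 to 209 CPM) and WT ERTU (45.5 to 230 CPM).

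Rgs2, the member with preference for Gαq, had the largest change. In WT CD it was at 62.7, 51.1, 25.1 and 45.8 CPM in libraries 1, 2, 4 and 5. WT ERTU libraries 11 to 15 held 90.3, 54.3, 83.2, 88.7 and 56.6 CPM. Library 4 was the lowest of all WT libraries, and the WT ERTU group held the highest levels of the series. In Gαq CD, libraries 6 to 10 had 35.3, 16.5, 24.7, 16.7 and 37.3 CPM. On ERTU, Gαq libraries 16, 17, 18 and 20 had 44.7, 15.4, 43.4 and 42.3 CPM. Every Gαq library was below every WT library except WT CD library 4, which lay among the Gαq libraries. Over both diets the log2 fold change was -0.93 ± 0.22 (SE), which is 1.91-fold lower in Gαq (adjusted p = 0.00374, edgeR). The call held in each of 18 fits that left out 1 library, where the adjusted p ran from 0.00122 to 0.0114. In bulk tissue, fewer cells of a type and less RNA per cell cannot be told apart, for Rgs2 as for the members that follow.

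Within diets the size was alike and the calls were not. Gαq on CD gave a log2 fold change of -0.82 ± 0.31 for Rgs2 (adjusted p = 0.114), and the groups overlapped through WT CD library 4. Without that library the value was -1.03 (adjusted p = 0.0476, edgeR). This was the only call on CD among 18 fits that left out 1 library. The other 17 did not pass, with adjusted p up to 0.339 (edgeR). On ERTU, all 4 Gαq libraries were below all 5 WT libraries, with a log2 fold change of -1.03 ± 0.31 (adjusted p = 0.0464), past the threshold by a small margin. This call was lost in 10 of 18 fits that left out 1 library (WT CD 2 or 5, Gαq CD 8, WT ERTU 11, 13 or 14, Gαq ERTU 16, 17, 18 or 20), with adjusted p from 0.0515 to 0.111. The interaction of genotype and diet for Rgs2 was -0.21 ± 0.44 on the log2 scale (adjusted p = 1.00), so the effect of Gαq was not shown to differ between diets.

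Rgs5, an R4 member with its main expression in the vessel wall, was lower in Gαq by a small amount and with little spread. It stood at 818, 783, 736 and 647 CPM in WT CD and at 691, 684, 760, 831 and 733 CPM in WT ERTU. The Gαq CD libraries held 555, 703, 605, 673 and 628 CPM, and the Gαq ERTU libraries 629, 603, 646 and 609 CPM. The groups overlapped on CD, where WT CD library 5 lay among the Gαq libraries, and did not overlap on ERTU. For genotype the log2 fold change was -0.24 ± 0.06 (SE; 1.18-fold lower, adjusted p = 0.0102, edgeR), and the call held in each of 18 fits without 1 library. Within CD it was -0.24 ± 0.09 (adjusted p = 0.142) and within ERTU -0.25 ± 0.10 (adjusted p = 0.117).

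Rgs10, the smallest member of the R12 subfamily and known from immune cells, was higher in Gαq at a low level. WT CD had 8.59, 5.36, 5.96 and 7.78 CPM and WT ERTU had 5.10, 5.02, 7.41, 8.18 and 5.03 CPM. Gαq CD had 7.62, 10.5, 10.8, 7.39 and 8.01 CPM, while Gαq ERTU had 8.83, 5.99, 9.32 and 9.70 CPM. The highest WT libraries (WT CD 1, WT ERTU 14) and the lowest Gαq libraries (Gαq CD 9, Gαq ERTU 17) overlapped. The log2 fold change was 0.41 ± 0.14 (SE; 1.33-fold higher, adjusted p = 0.0378, edgeR). That call rested on the full set: it was lost in 10 of 18 fits without 1 library (WT CD 2 or 4, Gαq CD 7 or 8, WT ERTU 11, 12 or 15, Gαq ERTU 16, 18 or 20), with adjusted p from 0.0618 to 0.0826.

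The other 5 members did not pass the threshold for genotype. Rgs3, a long gene with several coding forms, had a log2 fold change of -0.00 ± 0.09 and ran from 42.8 to 66.5 CPM over all libraries. Rgs4, known from the pacemaker tissue of the heart and from neurons, had -0.01 ± 0.11 and ran from 22.5 to 43.1 CPM. Rgs12, the largest protein of the group, had -0.00 ± 0.09 and ran from 26.2 to 39.9 CPM. Rgs14 had 0.06 ± 0.21 at 0.451 to 1.66 CPM. Rgs6, which restrains the response of pacemaker cells to acetylcholine, had 0.21 ± 0.12 (adjusted p = 0.26, edgeR) at 11.7 to 23.5 CPM. The SE of 0.09 to 0.11 for Rgs3, Rgs4 and Rgs12 leaves room for small changes of either sign, and the low counts of Rgs14 leave room for larger ones. Rgs4 and Rgs5, neighbours facing each other on chromosome 1, had different values, and the difference between them was not tested.

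Counting members within each diet gave 0 of 8 past the threshold for Gαq on CD, where 8.1% of all genes passed, and 1 of 8 on ERTU (Rgs2), where 8.17% passed. On CD 2 of 8 members, Rgs2 and Rgs5, had an unadjusted p under 0.05 by edgeR, beside 21.0% of all genes, and DESeq2 and limma voom also called 0. No member had Gαq and WT libraries that did not overlap over both diets or on CD, against 3.56% and 9.29% of all genes. On ERTU, 2 members (Rgs2 and Rgs5) had no overlap, against 10.9% of all genes. The median log2 fold change for genotype was -0.00 over the 8 members and 0.00 over all genes tested, and 3 of the 8 members had a value above 0.

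**Figure D2:**
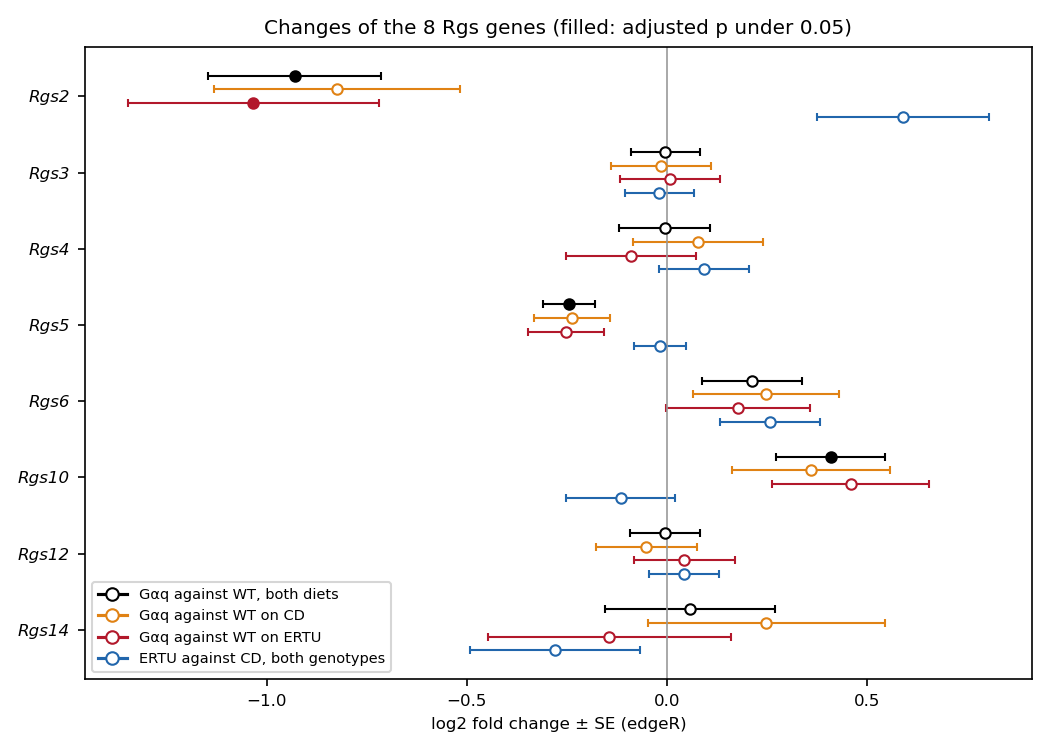
Log2 fold change with SE (edgeR) of the 8 Rgs genes for Gαq against WT over both diets, on CD and on ERTU, and for ERTU against CD over both genotypes. Filled points have an adjusted p under 0.05, which are Rgs2, Rgs5 and Rgs10 over both diets and Rgs2 on ERTU.

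Ertugliflozin was compared with control diet next. Over both genotypes 0 of 8 members passed the threshold (edgeR), as did 0% of all genes. At an unadjusted p under 0.05 there was 1 member, Rgs2, and 7.7% of all genes. Rgs2 was higher on ERTU by a log2 fold change of 0.59 ± 0.21 (adjusted p = 0.639, edgeR). In WT it was 0.69 ± 0.31 (adjusted p = 1.00) and in Gαq 0.48 ± 0.31 (adjusted p = 0.67). The value in Gαq was 0.74 without Gαq ERTU library 17 (adjusted p = 0.385, edgeR). Gnaq averaged 7473 ± 3818 CPM (SD) in Gαq CD and 3216 ± 1371 CPM (SD) in Gαq ERTU. Its log2 fold change for ERTU in Gαq was -1.22 (unadjusted p under 0.05, adjusted p = 0.653, edgeR). An effect of ERTU on Rgs2 in Gαq cannot be told apart from one of the Gnaq level. Mean Rgs2 in Gαq ERTU was 36.4 ± 14.1 CPM (SD, n = 4), below the 46.2 ± 15.7 CPM (SD, n = 4) of WT CD and with a wide overlap. Rgs6 had 0.26 ± 0.12 for ERTU over both genotypes (adjusted p = 0.65), and Rgs14 had -0.28 ± 0.21 (adjusted p = 0.726). Rgs3, Rgs4, Rgs5, Rgs10 and Rgs12 were between -0.12 and 0.09. Neither DESeq2 nor limma voom called a member for diet, in either genotype or for the interaction. In WT alone 0 members and 0% of genes passed, and 1 member (Rgs2) and 2.24% of genes had an unadjusted p under 0.05. In Gαq alone 0 members and 0.00615% of genes passed, and 0 members and 7.62% of genes had an unadjusted p under 0.05. No member was free of overlap between ERTU and CD libraries, in WT (0.756% of genes) or in Gαq (1.6% of genes). For the interaction of genotype and diet 0 of 8 members and 0% of genes passed, and at an unadjusted p under 0.05 there were 0 members and 1.92% of genes.

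The level of the transgene varied among Gαq libraries, and the members were set against it within that genotype. Gnaq was at 6304, 9701, 8045, 11672 and 1641 CPM in Gαq CD libraries 6 to 10 and at 2392, 5207, 2236 and 3031 CPM in Gαq ERTU libraries 16, 17, 18 and 20. The Gαq libraries with the least Rgs2, which are 7 and 9 on CD and 17 on ERTU, had the highest Gnaq of their own diets. Across the 9 libraries Pearson's r of log2 CPM was -0.79 for Rgs2 (exact permutation p = 0.0194, p adjusted over all genes = 0.161) and Spearman's rho was -0.70 (exact permutation p = 0.0433). Without the 2 libraries farthest from the median Gnaq, Gαq CD 10 and Gαq ERTU 18, r was -0.77 (n = 7, exact permutation p = 0.0536). With the mean of each diet removed it was -0.76 (exact permutation within diets, p = 0.00139, adjusted over all genes 0.213), and within diets r was -0.79 on CD (5 libraries) and -0.95 on ERTU (4 libraries, too few to be tested). The relation of Rgs2 thus kept its sign in both diets. Of all genes, 21.6% had an unadjusted p under 0.05 (10.5% of all genes with r below 0) and 8.89% had a correlation at least as strong. With diet means removed, 15.8% of all genes had an unadjusted p under 0.05, 0.584% had a p as small as that of Rgs2 and 8.34% had a correlation at least as strong.

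Of the other members, Rgs14 had r = 0.42 and Rgs3 r = -0.35, with exact permutation p of 0.261 and 0.345. Rgs4, Rgs5, Rgs6, Rgs10 and Rgs12 had r between -0.22 and 0.19. In all, 8 relations were computed, and 0 members passed the threshold adjusted over all genes, where 0.0676% of genes did, with 1 member (Rgs2) at an unadjusted p under 0.05. For Rgs5 and Rgs10, which differed between genotypes, r with Gnaq was 0.19 and -0.00 over the 9 libraries.

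**Figure D3:**
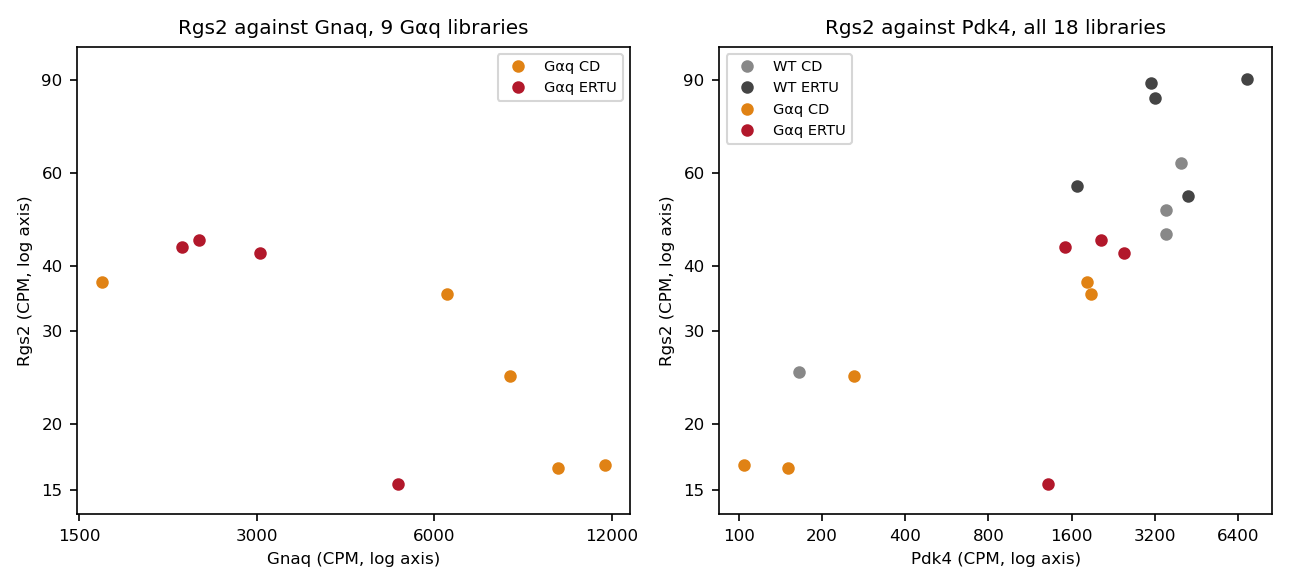
Rgs2 in CPM (log axes) against Gnaq in the 9 Gαq libraries on the left and against Pdk4 in all 18 libraries on the right, with points coloured by group. Rgs2 is at 15.4 to 16.7 CPM in the 3 Gαq libraries with the highest Gnaq of their diets, and the 4 libraries with Pdk4 under 300 CPM have Rgs2 between 16.5 and 25.1 CPM.

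A gene outside the family was set beside Rgs2 and was chosen after its values were seen. Pdk4, a kinase that shuts down pyruvate dehydrogenase and is raised by fasting, was at 166 CPM in WT CD library 4 and at 150, 261 and 105 CPM in Gαq CD libraries 7, 8 and 9. In the other 14 libraries it ran from 1308 to 6869 CPM. Those 4 libraries had the lowest Rgs2 of their groups. Over 18 libraries the deviations of Rgs2 and Pdk4 from their group means had r = 0.75, and all points share depth and tissue piece within a library. Other genes were closer to Rgs2 by this measure, with r = 0.94 for Hrct1 and 0.92 for Sult1a1 and for Gpihbp1. The share of all genes as close to Rgs2 as Pdk4 was not computed. Without the 4 libraries, Rgs2 in Gαq against WT was -0.86 on the log2 scale (adjusted p = 0.00813, edgeR), while the difference on CD was -0.55 (adjusted p = 0.626), the effect of ERTU in Gαq was 0.01 and that over both genotypes 0.29. All 4 libraries low in Pdk4 were on CD. Those of Gαq, libraries 7, 8 and 9, also had the highest Gnaq of Gαq CD, at 9701, 8045 and 11672 CPM. Within Gαq CD the relations of Rgs2 to Gnaq and to Pdk4 thus rest on the same libraries and cannot be told apart. In Gαq ERTU, library 17 had the highest Gnaq and the lowest Rgs2 of its group. It also had the lowest Pdk4 there, at 1308 CPM against 1508 to 2471 CPM in the others. The call of Rgs10 for genotype was lost without the 4 libraries (0.34, adjusted p = 0.178) and that of Rgs5 held (-0.28, adjusted p = 0.0188). The part of Pdk4 in these results was not tested.

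Markers of other cell types were compared beside the members. Of 7 pericyte markers other than Rgs5, the potassium channel subunit Abcc9 (log2 fold change -0.53) and Higd1b (-0.38) fell in Gαq and Cspg4 (0.50) rose, while Pdgfrb, Kcnj8, Vtn and Notch3 did not pass the threshold. Their summed level was 700 to 1180 CPM in WT and 624 to 924 CPM in Gαq libraries, and none was at 0 in any library. Over 18 libraries the deviations of Rgs5 from its group means had r from -0.25 (Cspg4) to 0.42 (Kcnj8) with these 7 markers. Of 6 endothelial markers Cdh5 and Tie1 fell, with sums of 1208 to 1578 CPM in WT and 1068 to 1297 CPM in Gαq. Of 6 smooth muscle markers 0 passed by edgeR and 1 had an unadjusted p under 0.05, with sums of 339 to 779 CPM in WT and 346 to 845 CPM in Gαq. For comparison with Rgs10, 0 of 6 macrophage markers passed by edgeR and 2 had an unadjusted p under 0.05, at 208 to 346 CPM in WT and 244 to 393 CPM in Gαq, with every log2 fold change between 0.18 and 0.26 and no marker at 0. Of 6 lymphocyte markers 4 were tested and Cd79b and Lck rose, at summed levels of 1.68 to 2.71 CPM in WT and 2.38 to 7.79 CPM in Gαq. Fibroblast markers Pdgfra, Dcn, Lum and Col1a1 (4 of 6) rose, with sums of 2741 to 5458 CPM in WT and 3953 to 6090 CPM in Gαq. Cardiomyocyte markers Myh6, Tnni3 and Ryr2 (3 of 6) fell, with sums of 58381 to 87297 CPM in WT and 54611 to 77627 CPM in Gαq, and all 6 were detected in every library. Platelet and red cell markers had 0 of 3 and 0 of 4 tested genes past the threshold by edgeR, and 0 and 0 at an unadjusted p under 0.05. The part of any of these in the changes of Rgs2, Rgs5 and Rgs10 was not tested.

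Atrial markers were uneven between libraries. The sum of Myl7, Myl4, Sln, Dkk3 and Bmp10 ran from 5.56 to 335 CPM in WT and from 14.6 to 907 CPM in Gαq libraries, with Bmp10 and Myl7 at 0 in some, and 0 of 4 tested markers passed for genotype (edgeR; 0 at an unadjusted p under 0.05). All 4 tested markers had a genotype log2 fold change above 0, from 0.65 to 1.65 with a median of 1.40. The summed level was over 200 CPM in 5 libraries (WT CD 5, Gαq CD 8, WT ERTU 14, Gαq ERTU 16 and 20). Without them the genotype values were -1.01 for Rgs2 (adjusted p = 0.0278, edgeR) and -0.25 for Rgs5 (adjusted p = 0.0246), both still past the threshold, whereas Rgs10 at 0.38 (adjusted p = 0.123) and Rgs2 on ERTU at -1.28 (adjusted p = 0.128) were not. On ERTU that fit kept only Gαq libraries 17 and 18, and library 17 had the lowest Rgs2 of the series, at 15.4 CPM.

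The deviations of each member from its group means were compared with those of 13098 genes over the 18 libraries, as a description with no test. Rgs2 was most like Hrct1 (r = 0.94), Sult1a1 (0.92) and Gpihbp1 (0.92), the last of which carries lipoprotein lipase across capillary endothelium. Rgs3 was most like Nos3 (0.91), the endothelial nitric oxide synthase, Dennd2a (0.90) and Tbkbp1 (0.87). Rgs12 was most like Adamts12 (0.89), a secreted protease, Fry (0.82) and Nectin2 (0.81), and Rgs5 like Wtap (0.87), Rpl22-ps1 (0.83) and Cmpk1 (0.80). Rgs10 came closest to Cd302 (0.86), a lectin of myeloid cells, Sfxn1 (0.86) and Wfdc17 (0.85). Rgs14 came closest to Zfp52 (0.83), Gabrr2 (0.81) and Bscl2 (0.81), Rgs6 to Zmynd15 (0.79), Pla2g4e (0.77) and D17H6S53E (0.75), and Rgs4 to Ptafr (0.78), Nmrk1 (0.78) and Aplp1 (0.77). Likeness was closest for Rgs2 and least close for Rgs4 and Rgs6, and no gene was in the top 3 of 2 members.

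Rgs genes other than the 8 members were measured on the same scale. Of 13 listed, 6 passed the filter on low counts, and Rgs1, Rgs8, Rgs9, Rgs13, Rgs20, Rgs21 and Rgs22 did not. For genotype 2 of 6 were past the threshold, beside 19.6% of all genes. These were Rgs7 and Rgs11, both of the R7 subfamily. Rgs7 was at 1.33, 1.88, 1.22 and 0.879 CPM in WT CD and 0.899, 1.67, 2.69, 1.78 and 1.48 CPM in WT ERTU. It was at 6.52, 4.69, 5.77, 4.41 and 4.22 CPM in Gαq CD and 2.92, 6.10, 4.97 and 5.51 CPM in Gαq ERTU. Every Gαq library was above every WT library, with a log2 fold change of 1.71 ± 0.20 (SE; 3.28-fold, adjusted p = 2.36e-06, edgeR), a call also made on CD (1.94, adjusted p = 0.00019) and on ERTU (1.51, adjusted p = 0.00115). Rgs11 averaged 1.23 ± 0.529 CPM (SD, n = 9) in WT and 2.11 ± 0.320 CPM (SD, n = 9) in Gαq, with a log2 fold change of 0.78 ± 0.21 (adjusted p = 0.0106, edgeR). The value was 0.73 without the 4 libraries low in Pdk4 (adjusted p = 0.0501) and 0.69 without the 5 high in atrial markers (adjusted p = 0.0941), similar in size and not past the threshold with fewer libraries. Rgs16, Rgs17, Rgs18 and Rgs19 had values from -0.40 to 0.35 and did not pass.

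The partners of the R7 proteins changed in both directions. Gnb5, which encodes Gβ5, was at 21.8 ± 2.08 CPM (SD, n = 9) in WT and 25.9 ± 3.47 CPM (SD, n = 9) in Gαq, a log2 fold change of 0.23 ± 0.08 (adjusted p = 0.0457, edgeR). That call was kept in 5 of 18 fits without 1 library, those without Gαq CD 7, WT ERTU 12 or 15, or Gαq ERTU 16 or 20, and lost in the other 13. Rgs7bp, which anchors R7 complexes at the membrane, fell by 0.35 ± 0.09 on the log2 scale (adjusted p = 0.00573, edgeR) and held in each of 18 such fits, but not without the 5 libraries high in atrial markers (-0.28, adjusted p = 0.0997). Gnao1, which encodes Gαo, a target of R7 proteins, rose from 36.1 ± 8.58 to 64.9 ± 5.70 CPM (SD, n = 9 each), a log2 fold change of 0.84 ± 0.11 (adjusted p = 1.73e-05, edgeR) that also passed on each diet. The Gαi genes Gnai1, Gnai2 and Gnai3 had 0.06, 0.11 and 0.17 and did not pass (adjusted p = 0.84, 0.273 and 0.161, edgeR). Rgs6, the most abundant R7 member here with 1.88 CPM per kilobase against 0.544 for Rgs7 and 0.398 for Rgs11, did not pass.

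Over 6 lists of other genes of G protein signalling, 51 of 66 genes were tested, and for genotype 11 were higher and 2 lower past the threshold, 13 of 51 beside 19.6% of all genes. Their median log2 fold change was 0.09. Among 14 proteins with an RGS homology domain, Snx14, a sorting nexin, rose by 0.30 ± 0.06 (adjusted p = 0.0012, edgeR). Grk4 (0.54, adjusted p = 0.0364), a receptor kinase, and Axin2 (0.38, adjusted p = 0.0366), a brake on Wnt signalling, also rose. The kinases Grk2, Grk3, Grk5 and Grk6, which switch off receptors upstream of Gαq, were between -0.08 and 0.12 and did not pass. Of 11 alpha subunits tested, Gna12 fell (-0.26, adjusted p = 0.0174), and Gna11, the closest relative of Gnaq, had 0.08 (adjusted p = 0.37). Of 8 gamma subunits, Gng8 (1.54, adjusted p = 0.00291, at 1 to 56 read pairs a library) and Gng2 (0.52, adjusted p = 0.0137) rose. Of 7 accessory genes tested, Gpsm2 (0.52, adjusted p = 0.0433), which holds GoLoco motifs, and Ric8b (0.23, adjusted p = 0.0145), a chaperone of alpha subunits, rose.

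Calls near the threshold in these lists depended on single libraries. Axin2 was lost in 9 of 18 fits without 1 library (WT CD 1, 2 or 4, Gαq CD 8, WT ERTU 13 or 15, Gαq ERTU 17, 18 or 20) with adjusted p up to 0.0801. Grk4 was lost in 8 (WT CD 2 or 5, Gαq CD 7 or 9, WT ERTU 11 or 14, Gαq ERTU 16 or 17) with adjusted p up to 0.0824. Gpsm2 was lost in 11 (WT CD 1, 2 or 4, Gαq CD 7, 8 or 9, WT ERTU 11, 12 or 15, Gαq ERTU 16 or 20) with adjusted p up to 0.113. Without the 4 libraries low in Pdk4, log2 fold changes of Grk4 (0.53), Gng2 (0.50), Gnb5 (0.21) and Axin2 (0.33) stayed near those over all 18 libraries but did not pass with fewer libraries. Those of Gna12 (-0.16) and Gpsm2 (0.33) were over 1.5 times smaller and did not pass either, while Rgs7, Snx14, Gnao1, Gng8, Ric8b and Rgs7bp kept theirs. Without the 5 libraries high in atrial markers, Grk4 (0.41), Gna12 (-0.22) and Gpsm2 (0.50) did not pass. With no filter on low counts Axin2, Gnb5 and Gpsm2 did not pass, with a 4-group model Gpsm2 did not, and by limma voom Grk4 and Gnb5 did not.

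**Figure D4:**
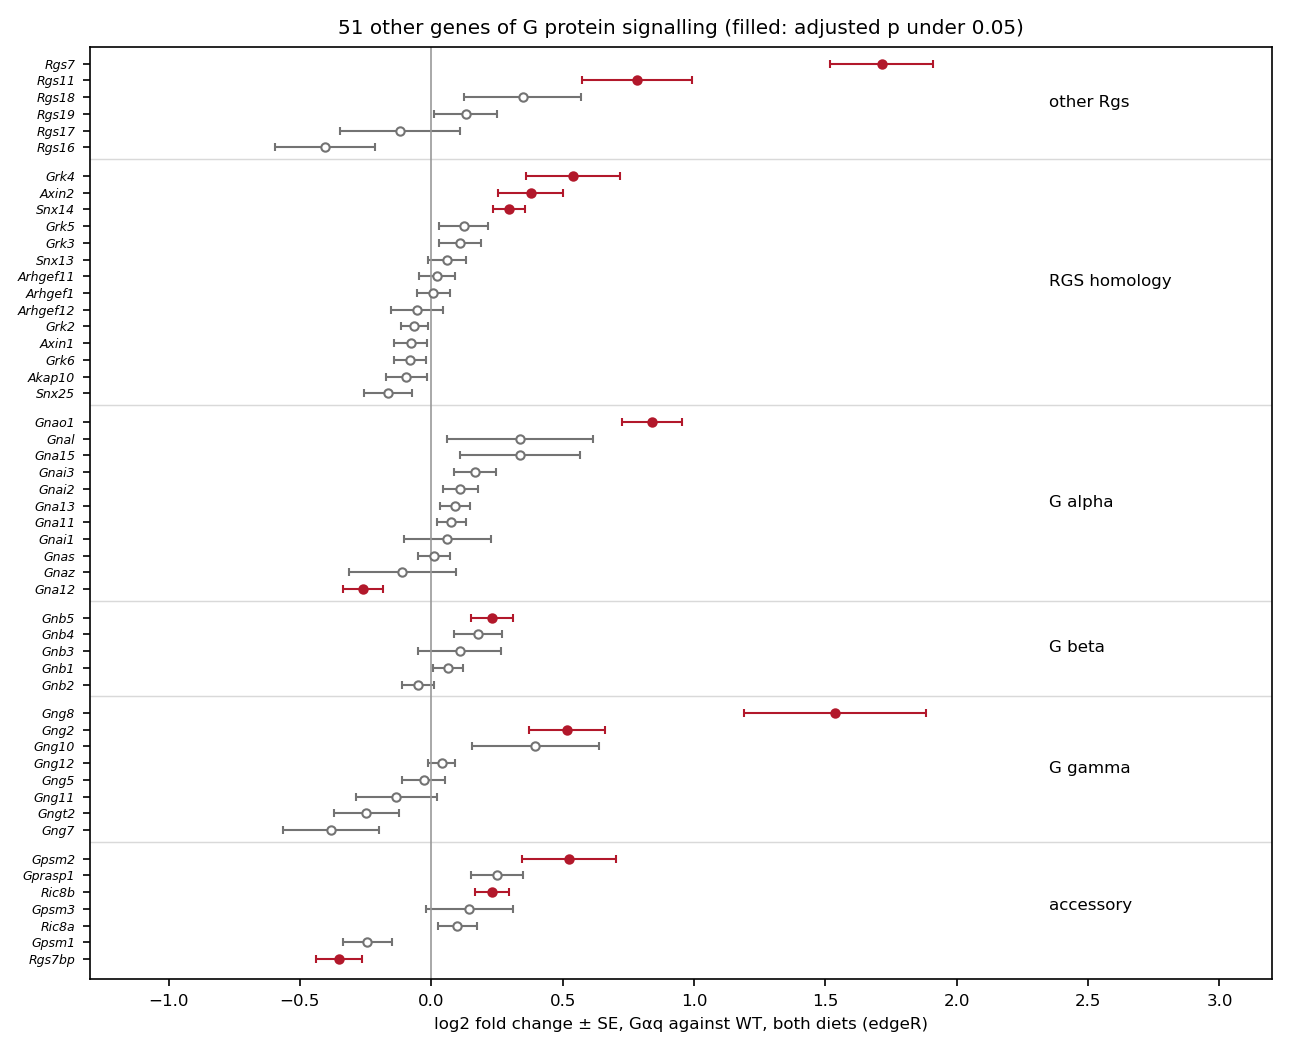
Log2 fold change with SE (edgeR) for Gαq against WT over both diets of 51 tested genes in 6 lists, ordered by value within each list. Filled points have an adjusted p under 0.05: 11 lie above 0, led by Rgs7 at 1.71, and 2 lie below 0, Gna12 and Rgs7bp.

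For diet 0 of these 51 genes passed the threshold, as did 0% of all genes, and 2 had an unadjusted p under 0.05 (edgeR) beside 7.7% of all genes. On CD, 5 of 51 passed for Gαq against WT, with Rgs7, Snx14, Gnao1 and Gnb5 higher and Gna12 lower, beside 8.1% of all genes. On ERTU 2 of 51 passed, Rgs7 and Gnao1, beside 8.17% of all genes. The count on ERTU was 4 without WT ERTU library 14, where Gng2 and Gng8 also passed. Gng2 was gained without Gαq ERTU 17 too, and Gng8 without WT ERTU 15 or Gαq ERTU 18. On ERTU, DESeq2 also called Gng2 (0.64) and Gng8 (1.64), and limma voom called Gng2 (0.87), Ric8b (0.25) and Rgs7bp (-0.37). On CD, Rgs11 was gained without WT CD 2 or WT ERTU 13, and by DESeq2 (0.95) and limma voom (0.96). The call of Gna12 on CD was lost in 14 of 18 fits without 1 library and kept without Gαq CD 6 or 10 or WT ERTU 14 or 15. That of Gnb5 was lost in 12 and kept without WT CD 4, Gαq CD 7, WT ERTU 11 or 15, or Gαq ERTU 17 or 20. Snx14 was lost without WT CD 1 (adjusted p = 0.0555, edgeR), while Rgs7 and Gnao1 held in all 18 such fits on both diets. Without the 4 libraries low in Pdk4, which left 3 WT and 2 Gαq libraries on CD, Rgs7 passed on CD and the other 4 did not. Their log2 fold changes on CD were then 0.45 for Snx14 (0.35 with all libraries), 0.41 for Gnb5 (0.36), 0.64 for Gnao1 (0.80) and -0.13 for Gna12 (-0.35).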

How the data were processed

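RNA of left ventricle was measured in 18 libraries. Per the study's methods and the submitters' notes, the authors aligned reads of poly(A) libraries to mm10 with STAR 2.6.0c and counted uniquely aligned pairs on the same strand over nuclear-encoded genes with featureCounts (Subread 1.6.2), giving the deposited raw counts. Deposited values on a log2-like scale, a DESeq2 variance-stabilized form of the counts by the authors, served as an alternative for the Gnaq relation. Totals ran from 15383566 to 20908363 counts per library. Of 55450 gene IDs, 55190 matched GENCODE M21.

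Counts were tested in R 4.3.3 with edgeR 4.0.16 (filterByExpr, TMM, quasi-likelihood F tests), with genotype and diet as factors or with 1 mean per group, and adjusted over all genes. CPM used TMM factors, and log2 CPM a prior count of 2. Correlations with Gnaq were tested over 362880 pairings (2-sided). On simulated data, with 200 genes changed by genotype, the fit was tested and recovered most of them. Alternatives included DESeq2 1.42.0 and limma 3.58.1 voom. The members and gene lists were chosen with earlier results of these data known. Named by rule were all members, Gnaq, up to 4 called genes per list, defining markers and the 3 genes most like each member. Pdk4 and genes of the lists that were not called or not tested were named after their values were seen.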

Additional observations from a re-analysis of the deposited data

Results flagged for a closer look

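In 4 to 5 libraries of a group, 1 library was looked for that stood far from the others, over 40 groups of values (8 members, Gnaq and the total count in 4 groups), where chance alone gives about 2. Rgs2 in Gαq ERTU library 17 was at 15.4 CPM against 42.3 to 44.7 CPM in the other 3, a gap of 0.917 of the group's range. That library had the highest Gnaq of its group, at 5207 CPM. The total count of WT ERTU library 15 was lowest of its group, with a gap of 0.710 of the range. The 2 libraries found are as many as chance gives.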

How the results depend on the processing

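Rgs2 and Rgs5 kept their genotype calls with other size factors, both other filters on low counts, DESeq2, limma voom and a 4-group model (6 settings), in 18 fits without 1 library and in both fits without libraries chosen after seeing the data, and Rgs10 kept its call in the first 6. The count of members called for genotype was 3, and 2 in 12 fits. Leaving out 1 library gave 0 to 1 members for Gαq on CD and 0 to 1 on ERTU, and 0 to 1 for the relation to Gnaq adjusted over 8 relations, where the 1 was Rgs2 without Gαq ERTU library 17. For Gαq on ERTU, DESeq2 gave 2 members (Rgs5 added, adjusted p = 0.0418) and limma voom gave 2 (Rgs10 added, adjusted p = 0.0225), while 0 remained past the threshold without the 5 libraries high in atrial markers. With diet means removed, 1 member (Rgs2) passed for Gnaq when adjusted over the 8 relations. Adjusted over all genes it did not pass (exact permutation within diets, adjusted p = 0.213), where 15.8% of genes had an unadjusted p under 0.05. Of 1448 member values under alternatives 120 changed sign, 0 of them with a call in either fit. All genes called on ERTU numbered 1330, and 2755 by limma voom. On CD they numbered 1318, and 317 without the 4 libraries low in Pdk4, 788 without WT CD library 1 and 851 without WT CD library 2. No paired analysis was possible because libraries of different groups never share a number in the count table, so the planned replicate block could not be fitted. Depth limits Rgs14 most. The causes of these differences were not tested.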
